A study of Mus musculus with 4 samples.

Results

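The Prader-Willi and Angelman locus of the mouse lies on chromosome 7, and 7 of its genes were followed through the m6A peaks of the brain: Ube3a, Snhg14, Snrpn, Ndn, Magel2, Mkrn3 and Peg12. They were chosen by name out of 55450 annotated genes, and 6 of the 7 had a peak in either replicate. A peak was assigned to a gene when at least 1 base of it lay in the gene body, and was called exonic when at least 1 base lay in an exon of any transcript of that gene, and intronic otherwise. In m6A-seq, RNA fragments bound by an antibody against N6-methyladenosine (m6A) are sequenced beside the input RNA that did not pass the antibody. The series holds 2 m6A immunoprecipitation (IP) samples and 2 input samples of whole brain from 4-week-old mice, of strain C57BL/6J in the labels and Prrc2a flox/flox in the series description, with no Cre driver stated there and no second condition. Each peak has a start, an end and an Enrichment, the ratio of IP over input given by the peak caller. The lists hold no read counts, so the depth behind each peak is unknown and no single peak was tested here.

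Genes of this locus are imprinted, which means that the copies from the mother and the father are not expressed alike. Snhg14, Snrpn, Ndn, Magel2, Mkrn3 and Peg12 are known to be expressed from the paternal copy, and loss of paternal expression in the human region causes Prader-Willi syndrome. Ube3a is expressed mainly from the maternal copy in neurons, its loss causes Angelman syndrome, and the antisense RNA of the Snhg14 unit is known to run across it on the opposite strand. m6A is typically placed in GGAC or GGACT sequences and is concentrated near stop codons and in 3′ UTRs of mRNA. The mice are inbred and the peaks carry neither strand nor allele, so neither the parental copy nor the strand behind a peak can be told from them.

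Peaks in exons were found by both replicates in 5 of the 7 genes, namely Ube3a and Snrpn with 3 shared intervals each and Ndn, Magel2 and Mkrn3 with 1 each. A shared interval holds the bases that overlapping peaks of both replicates have in common. Over all annotated genes, 45.5% of protein-coding genes and 8.13% of long non-coding genes had a shared exonic peak. Peg12 had no peak in either list, and Snhg14 had peaks mostly in its introns. In total, 40 peaks of replicate 1 and 25 peaks of replicate 2 lay over the 7 genes, and no peak lay over more than 1 of them. As annotated, Snhg14 and Ube3a overlap only from 59307924 to 59311536. A peak elsewhere in Ube3a was therefore counted for Ube3a alone, whichever strand its RNA came from.

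**Figure D1:**
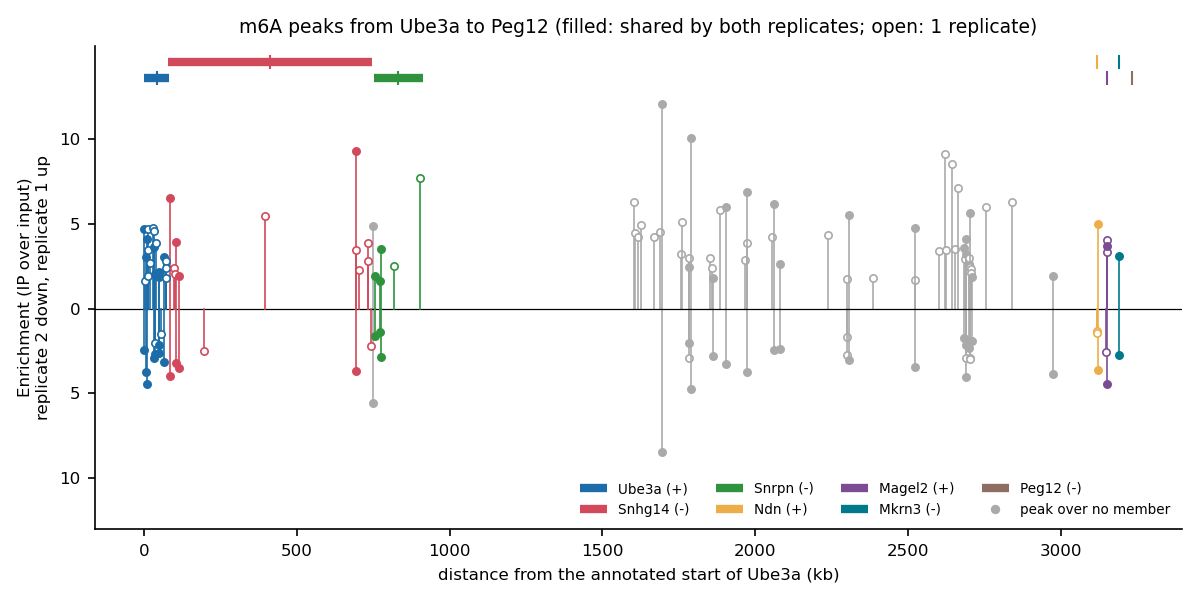
Peaks from the start of Ube3a to the end of Peg12, by distance from the annotated start of Ube3a in kb (x axis) and by Enrichment (y axis, replicate 1 upwards, replicate 2 downwards). Bars at the top are the 7 genes with their strand, filled points are peaks shared by both replicates and open points are peaks of 1 replicate. The peaks of the members lie at both ends of the stretch, with grey peaks over no member in the 2.21 Mb between Snrpn and Ndn.

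Compared with other peaks over genes, a smaller share of those over the locus genes touched an exon, through the peaks of Ube3a and Snhg14. In replicate 1, 12 of 40 peaks were exonic (30.0%, 95% exact binomial interval 16.6 to 46.5), where 89.5% of all peaks over protein-coding or long non-coding genes were. In replicate 2, 14 of 25 were exonic (56.0%, interval 34.9 to 75.6), against 97.5%. Ube3a and Snhg14 held the intronic peaks with 1 exception in Snrpn, where 4 of 5 peaks in replicate 1 and 3 of 3 in replicate 2 were exonic. Ndn, Magel2 and Mkrn3 have 1 exon each, so their peaks could only be exonic. Without Ube3a the exonic share was 42.9% of 21 peaks in replicate 1 and 66.7% of 15 in replicate 2, with Snhg14 still included.

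The 2 replicates shared 18 of the 40 replicate 1 peaks (45.0%, interval 29.3 to 61.5) and 18 of the 25 replicate 2 peaks (72.0%, interval 50.6 to 87.9). Over all peaks, 60.0% of replicate 1 and 77.0% of replicate 2 were shared, and both values lie inside the intervals of the locus genes. Of the exonic peaks, 9 of 12 in replicate 1 and 9 of 14 in replicate 2 were shared, where 67.2% and 76.9% of all exonic peaks were. Of the intronic peaks, 9 of 28 in replicate 1 were shared (32.1%, interval 15.9 to 52.4), where 14.0% of all intronic peaks were. In replicate 2, 9 of 11 intronic peaks were shared (81.8%, interval 48.2 to 97.7), against 77.2%. These intervals cover counting error only and treat peaks as independent, which peaks of 1 transcript are not.

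**Figure D2:**
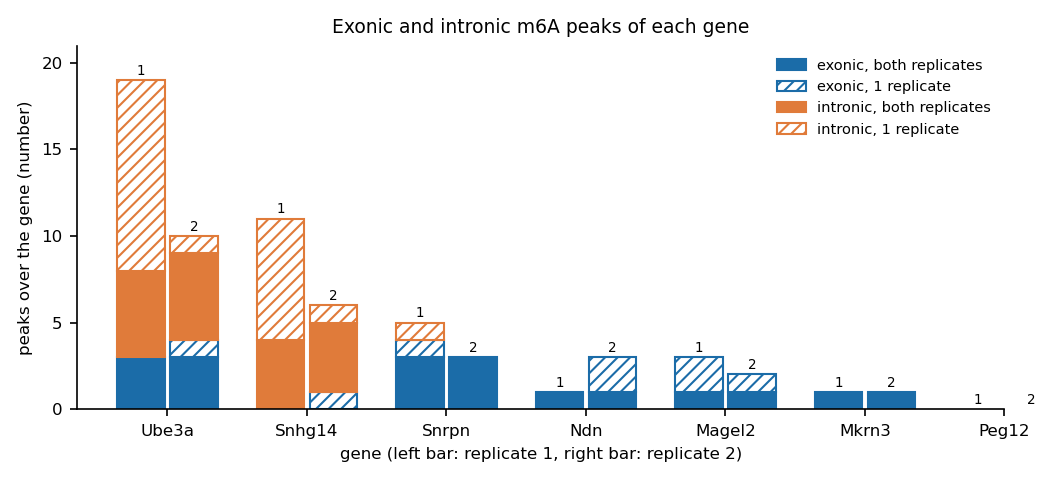
Number of peaks over each gene (y axis) in replicate 1 (left bar) and replicate 2 (right bar), split into exonic (blue) and intronic (orange) and into shared (filled) and single-replicate peaks (hatched). Ube3a has 19 and 10 peaks, Snhg14 11 and 6, and Peg12 none.

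Ndn, an intronless gene that encodes necdin, a MAGE family protein of postmitotic neurons, had the highest Enrichment of the exonic shared peaks in replicate 1. It is annotated on the plus strand at chr7:62346569-62350262 (GRCm38, the build of mm10). The shared interval chr7:62349626-62350008 lay wholly in the 3′ UTR, with its middle 434 nt past the start of the stop codon. Its Enrichment was 4.98 in replicate 1 and 3.65 in replicate 2, at the 89.3 and 91.9 percentile of their lists. It was also the interval with the most GGACT sequences on the gene strand among the 18, with 4. They are shown with 10 bases on either side, GGACT in capitals, because they are the only GGACT of the 9 exonic intervals that fell in an annotated exon of the member. Their adenosines lie on the plus strand of chromosome 7 at 62349694, 62349739, 62349830 and 62349845.

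Ndn site 1: tctttgtatgGGACTgatgatctgt
Ndn site 2: agagttagcaGGACTtaacagcaac
Ndn site 3: catgtggaatGGACTgatttgaact
Ndn site 4: gatttgaactGGACTgttctcagtg

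Replicate 2 alone had 2 further Ndn peaks in or next to the coding sequence, with Enrichment of 1.35 and 1.45. Both were among the weakest peaks of that list, at the 4.4 and 8.7 percentile.

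Magel2, another intronless MAGE family gene, which acts with ubiquitin ligases in protein sorting, had a shared interval across its stop codon. The gene lies on the plus strand at chr7:62377010-62381640, and the interval chr7:62380986-62381332 held 219 bases of coding sequence with the stop codon and 128 bases of 3′ UTR. Enrichment was 3.69 in replicate 1 and 4.42 in replicate 2, so that the second replicate had the higher value, at the 97.6 percentile of its list. The coding part held 1 GGAC and the UTR part another, and neither was GGACT. The coding part, chr7:62380986-62381204 on the plus strand, is printed with GGAC in capitals to show how the peak ran into the end of the reading frame.

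Magel2 coding end: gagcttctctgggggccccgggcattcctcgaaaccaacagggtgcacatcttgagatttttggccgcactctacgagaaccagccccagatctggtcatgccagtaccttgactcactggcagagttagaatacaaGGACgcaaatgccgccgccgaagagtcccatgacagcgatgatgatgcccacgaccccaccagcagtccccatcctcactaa

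Further peaks in the Magel2 coding sequence were seen in 1 replicate each, 2 in replicate 1 (Enrichment 3.31 and 4.06) and 1 in replicate 2 (2.54). None of these 3 overlapped a peak of the other list.

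Mkrn3, an intronless gene for a zinc finger ubiquitin ligase known for its role in the timing of puberty, had 1 peak per replicate, both in coding sequence. The gene lies on the minus strand at chr7:62417593-62420139. The replicate 1 peak was 762 nt wide with an Enrichment of 3.11, and the replicate 2 peak was 200 nt wide with an Enrichment of 2.75. Their common part, chr7:62419042-62419199 on the minus strand, was the shortest exonic interval of the locus at 158 nt, and Mkrn3 was the gene lost when overlap of 50% of both peaks, or midpoints within 100 bp, was required. It held 2 GGAC, in capitals here, and no GGACT.

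Mkrn3 interval: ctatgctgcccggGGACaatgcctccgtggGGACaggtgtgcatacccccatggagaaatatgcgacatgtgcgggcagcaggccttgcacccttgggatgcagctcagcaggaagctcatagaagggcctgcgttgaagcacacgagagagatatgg

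Snrpn, which encodes the splicing protein SmN and shares its first exons with Snurf, had 3 shared exonic intervals of unequal strength. The gene lies on the minus strand at chr7:59982495-60140219. At the start of its shorter transcript, where Snurf also begins, the interval chr7:60004867-60005235 had an Enrichment of 3.51 in replicate 1 and 2.86 in replicate 2. At the stop codon, chr7:59983078-59983396 had 1.93 and 1.62, with its middle 5 nt past the start of that codon. In an untranslated exon of Snrpn that is coding in Snurf, chr7:59999214-59999569 had 1.62 and 1.38, at the 7.7 and 5.6 percentile. The stop codon interval, where m6A is typically found, was among the weaker intervals of the locus, and it held no GGAC on the gene strand. The GGACT of the first interval, at 60004891, was in the first intron of the shorter transcript.

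The highest Snrpn value came from 1 replicate only. A peak at chr7:60132250-60132449 had an Enrichment of 7.70 in replicate 1, at the 99.2 percentile, and no counterpart in replicate 2. It spanned exon 2 of the longer Snrpn transcript, ending with the last base of that exon on the gene strand, and a processed pseudogene, Gm18908, is annotated there on the other strand. Replicate 1 also had an intronic Snrpn peak of 2.53 that replicate 2 lacked.

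Ube3a, a ubiquitin ligase, carried more peaks than any other gene of the 7, 19 in replicate 1 and 10 in replicate 2, and most were intronic. It lies on the plus strand at chr7:59228750-59311536. The shared interval across its annotated start, chr7:59228638-59229335, had an Enrichment of 4.71 in replicate 1 and 2.43 in replicate 2. The replicate 1 peak was 1633 nt wide, began upstream at 59227989 and overlapped 2 peaks of replicate 2. The other of these lay upstream of Ube3a and had a higher Enrichment than 2.43. Both peaks behind the interval also lay over an exon of 9330162G02Rik, annotated on the minus strand. The 1 GGACT of the interval, at 59228712, was upstream of the annotated start, and 4 GGAC without a following T lay downstream in annotated exon. In coding exon 6, a long exon of Ube3a, chr7:59275922-59276123 had 1.88 and 2.14 and chr7:59276462-59276716 had 2.15 and 2.62. Both exon 6 intervals were higher in replicate 2, and their middles lay 2001 and 1434 nt before the stop codon in the spliced transcript. No peak of either replicate lay in the last exon of Ube3a with its long 3′ UTR. The second exon 6 interval is shown on the plus strand because it holds the only GGAC of the pair, in capitals.

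Ube3a exon 6 interval: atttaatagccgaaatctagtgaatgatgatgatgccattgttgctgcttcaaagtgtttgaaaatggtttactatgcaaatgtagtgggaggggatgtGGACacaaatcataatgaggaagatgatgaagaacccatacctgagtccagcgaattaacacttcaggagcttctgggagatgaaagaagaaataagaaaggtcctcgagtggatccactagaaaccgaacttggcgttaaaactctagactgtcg

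**Figure D3:**
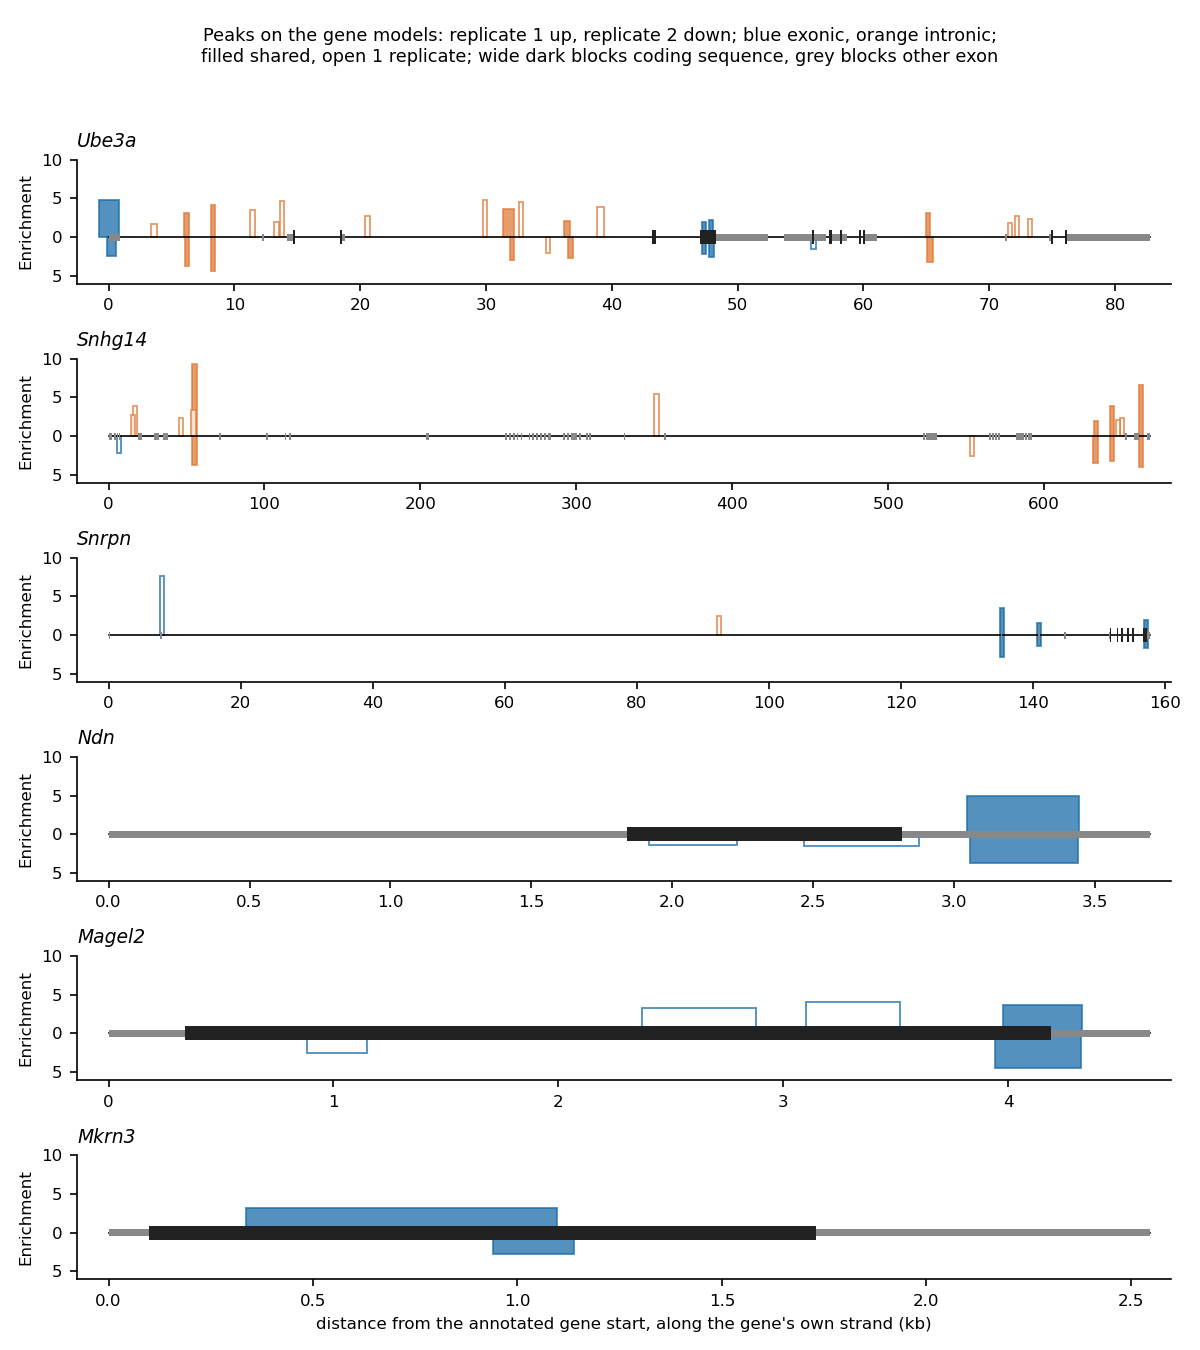
Peaks on the models of the 6 genes with peaks, by distance from the annotated gene start along the gene's strand in kb (x axis) and by Enrichment (y axis, replicate 1 upwards, replicate 2 downwards). Dark blocks are coding sequence, grey blocks other exons, blue peaks are exonic and orange intronic, filled peaks are shared and open peaks are in 1 replicate, and narrow peaks and exons are drawn at a least width. Ndn and Magel2 have their shared peak at the 3′ end, whereas most Ube3a peaks stand in introns.

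In the introns of Ube3a, replicate 1 had 16 peaks and replicate 2 had 6, of which 5 of each were shared. The strongest shared interval, chr7:59236888-59237151, had an Enrichment of 4.12 in replicate 1 and 4.44 in replicate 2, the latter at the 97.6 percentile. The other 4 ranged from 2.06 to 3.60 in replicate 1 and from 2.66 to 3.77 in replicate 2. All 5 were 3.82 kb or more away from any Ube3a exon. Of the intronic peaks, 8 of 16 in replicate 1 and 3 of 6 in replicate 2 lay over exons of transcripts annotated on the opposite, minus strand as awaiting experimental support. Most of these peaks lay over the same annotation, 9330162G02Rik, in the part of Ube3a nearest its start. The rest lay over Gm44562 or Gm44559, so the counts do not stand for as many transcripts. On the Ube3a strand, GGACT was found in 0 of the 5 intervals and GGAC in 1, and on the opposite strand GGACT was found in 2 and GGAC in 3. Neither these motif counts nor the overlaps with minus-strand exons were set beside a share over all intronic peaks. No difference between the strands can be read from so few intervals.

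The base composition of these intronic peaks was uneven between the strands. Of 17 intronic places (the 5 shared intervals and 12 single-replicate peaks), 16 had fewer purines (A or G) than pyrimidines on the Ube3a strand, and the exception was chr7:59234852-59235051 with 60.0%. The shared intervals had a median of 34.8% purine, where all intron sequence of Ube3a had 45.4%. Across 558 shared intronic intervals over a single gene in the whole data set, the median on the gene strand was 59.9% (quartiles 49.7 and 69.4). Both Ube3a intervals with GGACT on the opposite strand are printed on that minus strand, chr7:59260629-59260926 and chr7:59265291-59265409, with GGAC in capitals.

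Ube3a intron, minus strand, interval a: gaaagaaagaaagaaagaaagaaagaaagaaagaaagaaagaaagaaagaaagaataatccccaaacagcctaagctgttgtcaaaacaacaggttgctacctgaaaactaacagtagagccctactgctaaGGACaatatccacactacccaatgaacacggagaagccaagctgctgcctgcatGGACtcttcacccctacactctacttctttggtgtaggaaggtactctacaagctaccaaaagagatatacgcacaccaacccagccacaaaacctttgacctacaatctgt
Ube3a intron, minus strand, interval b: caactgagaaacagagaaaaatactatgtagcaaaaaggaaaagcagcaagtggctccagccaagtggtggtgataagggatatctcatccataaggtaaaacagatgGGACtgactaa

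Interval a opens with a run of gaaa repeats, and its second GGAC is a GGACT, as is the GGAC of interval b. The part of the base composition and of the overlapping minus-strand transcripts in these peaks was not tested.

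Snhg14, the long non-coding host of the snoRNA clusters and of the Ube3a antisense RNA, had its peaks in introns in 11 of 11 cases in replicate 1 and in 5 of 6 in replicate 2. It is annotated on the minus strand over 667836 bases, at chr7:59307924-59975759. The only exonic peak, chr7:59970344-59970607 near the start of the gene, had an Enrichment of 2.23 in replicate 2 and none in replicate 1. The shared interval with the highest value in replicate 1 had 9.27 in replicate 1 (99.8 percentile) and 3.70 in replicate 2 (92.6 percentile). Another, chr7:59314739-59315205, had 6.53 and 3.97, which was the highest in replicate 2, and was 99.1% purine on the Snhg14 strand. Neither of these intervals held GGAC on either strand. The remaining shared intervals had 3.95 and 3.21 at chr7:59333166-59333434 and 1.94 and 3.52 at chr7:59343973-59344192, the latter over the snoRNA gene Gm24966.

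On the Snhg14 strand, purines made up more than 50% in all 4 shared intervals and in 10 of the 12 intronic places. The shared intervals ranged from 52.7% to 99.1% purine with a median of 70.0%, where all intron sequence of Snhg14 had 49.8%. Across the 558 shared intronic intervals of all genes the median was 59.9% and the lower quartile 49.7%, so most of those also exceeded 50%. Among them the 4 Snhg14 intervals stood at the 99.5, 73.5, 33.0 and 78.5 percentile, in order of position. GGAC lay on the Snhg14 strand in 1 of the 4 and on the opposite strand in 2.

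**Figure D4:**
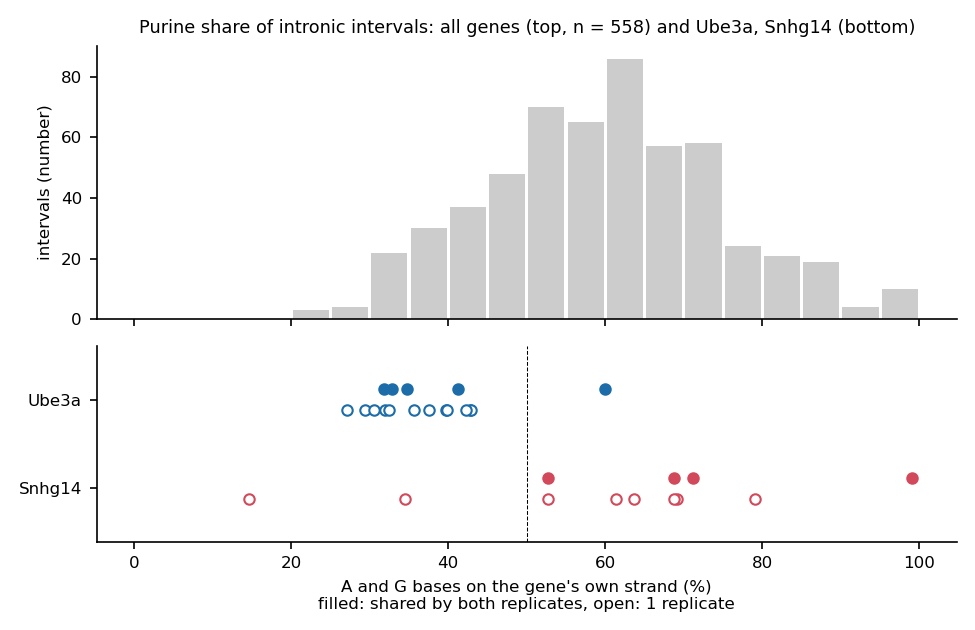
Share of A and G bases on the gene's own strand (x axis, %). The upper panel counts the 558 shared intronic intervals of all genes by 5% steps, and the lower panel shows the intronic intervals of Ube3a and Snhg14, filled when shared and open when in 1 replicate, with a dashed line at 50%. The Ube3a points lie left of the line but for the 1 at 60.0%, and 10 of the 12 Snhg14 points lie right of it.

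The snoRNA clusters of Snhg14 were poor in peaks, and also poor in sequence that single reads can place. Between the first and the last of 208 annotated snoRNA genes, a segment of 581 kb, 4 peaks of replicate 1 and 3 of replicate 2 were found. The 34.3 kb between the clusters and the 3′ end of the gene held 4 and 2 peaks, and the 52.6 kb on the 5′ side held 3 and 1. Only 44.1% of the 101-base windows of the snoRNA segment occur once in the genome, compared with 99.8% and 96.7% in the flanks. Windows with unknown bases, 8.63% of that segment, were left out of this share. Over all Snhg14 exons, 86.4% of windows occur once. The paired or longer reads that the methods name could place more. Since the authors kept uniquely mapped reads, few peaks and few placeable reads cannot be told apart in the snoRNA segment. Inside the 40 and 25 peaks over the members, every window occurred once in the genome.

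Among the 9 exonic intervals, GGACT lay on the gene strand in 3 (Ube3a, Snrpn and Ndn), and GGAC in 7. Of 18581 shared exonic intervals of the same range of lengths, 158 to 698 nt, 39.0% held GGACT and 79.9% held GGAC on the gene strand. On the opposite strand GGACT was in 3 of the 9, where 27.2% of the 18581 held it. With 9 intervals, these counts differ from the background shares by no more than 1 interval. Both motifs were searched as their plain letters, and GGACT contains GGAC. In the 9 intronic intervals GGACT was in 0 on the gene strand and in 3 on the opposite strand, and GGAC was in 2 and 5. For intronic intervals no background share of the motifs was computed.

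The median Enrichment of the 9 exonic shared peaks was 3.11 in replicate 1 and 2.62 in replicate 2, and of the 9 intronic ones 3.60 and 3.52. All shared peaks had a median of 3.01 and 2.33. Most of those touch an exon, in replicate 1 22108, where 540 lay over genes and off exons. No median of all intronic shared peaks was set beside the intronic values. Replicate 1 had the higher value in 10 of the 18 shared intervals of the locus, where it had the higher value in 77.6% of 23901 shared intervals in the whole data set. The median ratio of replicate 1 to replicate 2 was 1.15 in the locus and 1.29 overall. Ranked by the lower of both values, Magel2 and Ndn came first of the exonic intervals, and their replicate values overlapped, so no order between them can be given. The Snrpn first exon and Mkrn3 followed, again with overlapping values, and both of their replicates lay under those of Magel2 and Ndn. The Ube3a start interval, from 2.43 to 4.71, overlapped all 4. Its value of 4.71 belongs to a replicate 1 peak that began upstream of the gene, so it may not describe Ube3a exon alone.

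**Figure D5:**
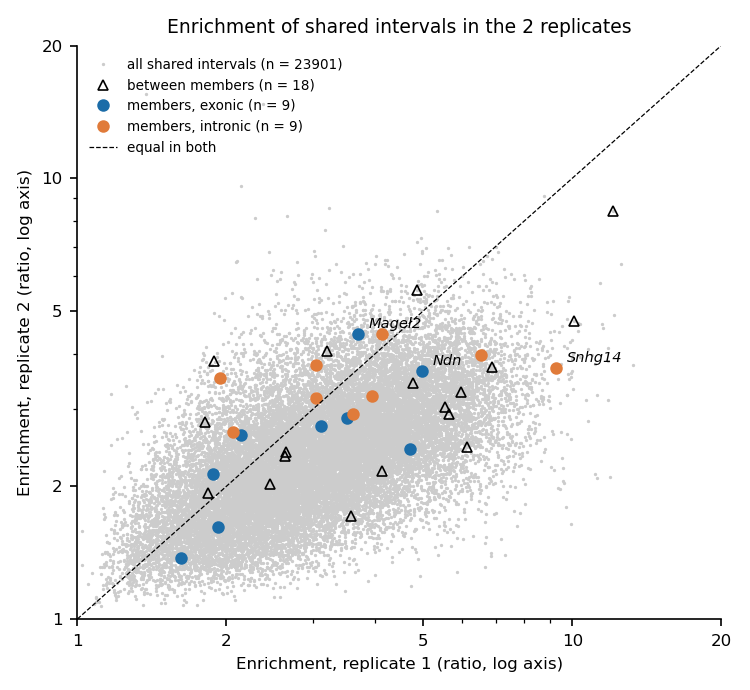
Enrichment in replicate 1 (x axis) and replicate 2 (y axis) of shared intervals, both as ratios of IP over input on log axes, for all 23901 intervals (grey), the locus genes (blue exonic, orange intronic) and the intervals between the members (triangles). The dashed line marks equal values, and 8 of the 18 locus intervals lie above it.

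Listed neighbours of the 7 members had shared exonic peaks about as often. Of 11 annotated neighbours, 9 had one (81.8%), compared with 5 of 7 members (71.4%). Herc2, a large ubiquitin ligase, had 4 shared exonic intervals with values up to 6.16 and 4.57, and Nipa1, a magnesium transporter gene, had 5.27 and 3.88 in its highest. The listed neighbours lie on the Ube3a side of the members, except Snurf, which lies within Snrpn. Snurf shares both of its intervals with Snrpn, so they count in both sets. Of 35 imprinted genes from other loci, 28 had a shared exonic peak (80.0%), and the highest by the lower of both values was in the retrotransposon-derived Peg10 with 6.51 and 6.40. Each of these shares stands above the 45.5% of all protein-coding genes, but the sets are small and no difference was tested. The members and the imprinted genes also include long non-coding genes, for which the share over all genes was 8.13%. Some intervals counted for more than 1 gene, as in Snurf and Snrpn or in Zrsr1 and Commd1. The expression of none of these genes was measured in the files used here.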

How the data were processed

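The deposited lists give for each m6A peak its position and its Enrichment, a linear fold (ratio) of IP over input made by the authors. According to the methods, the authors trimmed reads, aligned them with TopHat to mm10, kept uniquely mapped reads and ran MACS2 for each IP replicate against its own input, without pooling and with duplicate reads kept. The submitters' processing notes name TopHat2 2.0.9, and the methods give another version. Duplicates can raise the Enrichment of peaks built on few molecules, and where the input is thin the ratio rests on the caller's lowest control value. The depth of the samples is unknown.

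Peaks were set against GENCODE M21 and the GRCm38.p6 sequence, in which 0 of 68667 peaks ended beyond their chromosome and 6 of 6 coding members began with ATG. Positions are counted from 1 with both ends included. Peaks overlapping by at least 1 bp were called shared. Overlaps were computed with numpy 2.4.6 and pandas 2.3.3 and tested on simulated data against bedtools 2.31.1, sequences were read with pysam 0.24.0 and aligned with Biopython 1.88, exact (Clopper-Pearson) 95% intervals came from scipy 1.17.1, and plots from matplotlib 3.10.9. Uniqueness was counted over windows of 101 bases, the shortest read length given, without regard to read pairs. The sequences of some intervals are not reported here. The input samples enter only through the Enrichment. The members, the gene lists and the rules were chosen with earlier results of these data known. Values are given for all members, and other genes are named by their highest values. Alternatives were 50% overlap, midpoints within 100 bp, Enrichment of at least 2, merging within 100 bp, other exon rules, another motif and strand, and leaving out a replicate.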

Additional observations from a re-analysis of the deposited data

How the results depend on the processing

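Of 48 alternative values over 8 results, 43 stayed within their limits (for a count 1.5 times, for a share its 95% interval, for a median the SD of 0.348 between both replicates' medians), 5 moved and 0 reversed. The limits of the shares are wide, since they rest on few peaks. The shared share of replicate 1, 45.0%, became 35.0% with 50% overlap and 32.5% with midpoints within 100 bp. In replicate 2, 72.0% became 56.0% and 52.0%. The median Enrichment of exonic shared peaks in replicate 1, 3.11, became 2.15 with 50% overlap, 2.15 with midpoints within 100 bp, 3.60 with Enrichment of at least 2 in both lists and 2.63 with exons of the representative transcript only. The number of exonic intervals with the motif on the gene strand rose from 3 for GGACT to 7 for GGAC, which is the shorter sequence and is contained in GGACT. The number of members with an exonic peak was 5, it was 4 with the stricter overlaps, which lost Mkrn3, and between 5 and 6 with peaks of 1 replicate alone (6 without replicate 1, with Snhg14 added, and 5 without replicate 2). The exonic and shared shares without Ube3a were computed after the data were seen. No paired analysis was possible because the input samples came without processed files here and the IP samples form a single condition. The lists give no reads, strand or depth, so how near a peak of 1 replicate was to being called in the other cannot be told.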

Other observations

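The 2.21 Mb between Snrpn and Ndn hold long non-coding transcripts, all annotated on the minus strand where named here, and m6A peaks lay in this stretch. The peaks have no strand, so the transcript behind each of them is not known. Between the start of Ube3a and the end of Peg12, 50 peaks of replicate 1 and 23 of replicate 2 lay over none of the 7 genes, and all but 1 in each replicate lay in that gap. The replicates shared 18 of them. Their median Enrichment was 3.98 in replicate 1 and 2.93 in replicate 2, and 18 and 5 of them lay outside all annotated genes. Over the lincRNA A230057D06Rik lay 14 and 6 peaks, with 5 shared, and over A230006K03Rik 7 and 4, with 4 shared. An exon was touched by 3 and 2 of those over A230057D06Rik and by 3 and 3 of those over A230006K03Rik.

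The strongest of these intervals, chr7:60922761-60923074, had an Enrichment of 12.1 in replicate 1 and 8.44 in replicate 2, which ranked 2 of 23901 shared intervals by the lower value. It reaches from an exon of the lincRNA Gm44644 into one of Gm44643. On the minus strand, 5 more of the 18 intervals aligned to it over 316 or more positions, at 85.4% to 87.7% identity. These 6 related intervals had values from 5.53 to 12.1 in replicate 1 and from 2.46 to 8.44 in replicate 2. The middle 300 bases of the strongest are shown on the minus strand (chr7:60922768-60923067), because they hold a CAG repeat and a pair of GGAC, which are in capitals.

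Gm44644 and Gm44643 interval: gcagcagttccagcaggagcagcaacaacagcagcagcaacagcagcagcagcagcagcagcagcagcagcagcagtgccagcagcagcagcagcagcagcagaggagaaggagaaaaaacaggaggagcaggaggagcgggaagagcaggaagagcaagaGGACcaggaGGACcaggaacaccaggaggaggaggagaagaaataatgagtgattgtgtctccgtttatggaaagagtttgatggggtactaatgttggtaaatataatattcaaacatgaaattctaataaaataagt

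The CAG repeat ran for 12 units without a break. Of the 18 intervals, GGAC was on the minus strand in 14 and on the plus strand in 4, and GGACT in 7 and 1. No share was computed over intervals of this kind. Of the 18581 shared exonic intervals of 158 to 698 nt, 79.9% held GGAC and 39.0% GGACT on the gene strand, and 27.2% GGACT on the opposite strand. The minus-strand counts lie near the gene-strand shares. Since 6 of the 18 intervals are related in sequence, the 18 are not independent. Every 101-base window of the 6 related intervals occurred once in the genome.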
